A study of Homo sapiens with 6 samples.

Results

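The genes described here build, load and release small extracellular vesicles (sEVs), the vesicles that reach the medium when an endosome holding internal vesicles fuses with the cell surface. They were 38 genes chosen by name: the ESCRT subunits with their VPS4 ATPases, syntenin and ALIX with an ALIX partner, tetraspanins, lysosome-membrane proteins, RAB GTPases, sphingomyelinases, SNAREs and annexins. A probe set belonged to them when the platform annotation gave it one symbol and that symbol was on the list. This held for 68 of 22215 probe sets and for 37 of the 38 genes. PDCD6IP, which encodes ALIX, had no probe set of its own in the annotation.

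The study asked what SH3GL2 (Endophilin A1), a membrane-curving protein of endocytosis, changes downstream in triple negative breast cancer (TNBC), and it followed the cancer testis antigen SPANXB1 into sEVs. Messenger RNA was measured on 6 Affymetrix human genome arrays. Of these, 3 came from SUM-159 cells stably transfected with wild-type SH3GL2 and 3 from SUM-159 cells stably transfected with an empty vector of the same backbone. SUM-159 is a mesenchymal-like TNBC cell line. Cells of both groups went through transfection and selection, stable clones were kept under G418, and the sources used here do not say whether the arrays were made from a single clone or from a pool. They also do not say whether the triplicates were separate cultures, so the p-values measure only the spread between these arrays, which may be technical.

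Vesicles bud into the endosome by several routes. The ESCRT complexes gather ubiquitinated cargo and cut the neck of the bud, syntenin links syndecans to ALIX and the ESCRT machinery, and tetraspanins and ceramide can sort cargo with less need of ESCRT. RAB GTPases then decide whether the filled endosome goes to the lysosome or to the cell surface, and SNAREs drive the final fusion.

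All values are log2 signals as deposited, and every difference is SH3GL2 minus empty vector on the log2 scale. Array medians lay between 6.97 and 7.02. Background was read from 83 probe sets of 46 genes that other organs express, whose median signal was 5.00 and whose 95th percentile was 7.27 (the off-tissue level). The probe set of SH3GL2 itself averaged 3.26 ± 0.09 in SH3GL2 cells and 3.22 ± 0.04 in empty vector cells (SD, n = 3 each), below that median in both, so it could not check the labels. Markers of blood, endothelium and adipocytes lay above the 95th percentile for 0 of 2, 0 of 3 and 0 of 2 genes. Of the 5 luminal marker genes, which should be low in this line, 2 lay above it at a probe set. ERBB2 had means of 8.45 in SH3GL2 cells and 8.50 in empty vector cells at 216836_s_at, and GATA3 had 9.27 in SH3GL2 cells and 9.57 in empty vector cells at 209604_s_at. None of the luminal probe sets passed, with differences of -0.25, -0.34 and -0.30 at the 3 of GATA3 (lowest adjusted p = 0.0711). All 5 mesenchymal-like marker genes lay above it, and 3 of them (AXL, FN1 and ZEB1) were lower in SH3GL2 cells. The part of these mesenchymal-like and luminal markers in the results on vesicle genes was not tested.

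Few transcripts of the vesicle machinery were called different. With limma's p-values adjusted over the whole array, 1 of the 68 probe sets was higher in SH3GL2 cells (RAB7A) and 1 was lower (SDCBP, syntenin), while 66 did not pass the threshold of 0.05. That is 2.94% of the vesicle-gene probe sets, against 4.17% of all probe sets tested, of which 1.99% were higher and 2.18% lower. Among probe sets whose higher group mean lay above the off-tissue 95th percentile, the share was 3.7% for the 54 of vesicle genes and 6.93% for all. This filter can admit a probe set through 1 group alone and so favours changed ones. It admitted SMPD2 through SH3GL2 cells only (mean 7.34, against 7.08 in empty vector cells). At an unadjusted p under 0.05 by limma, 11 vesicle-gene probe sets passed (16.2%, against 15.9% of all), 5 of them higher (8.24% of all) and 6 lower (7.62% of all). In 12 the arrays of the groups did not overlap (17.6%, against 19.4% of all), 4 of them higher (10.5% of all) and 8 lower (8.97% of all). The shares of the vesicle genes sat near or under those of the whole array.

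**Figure D1:**
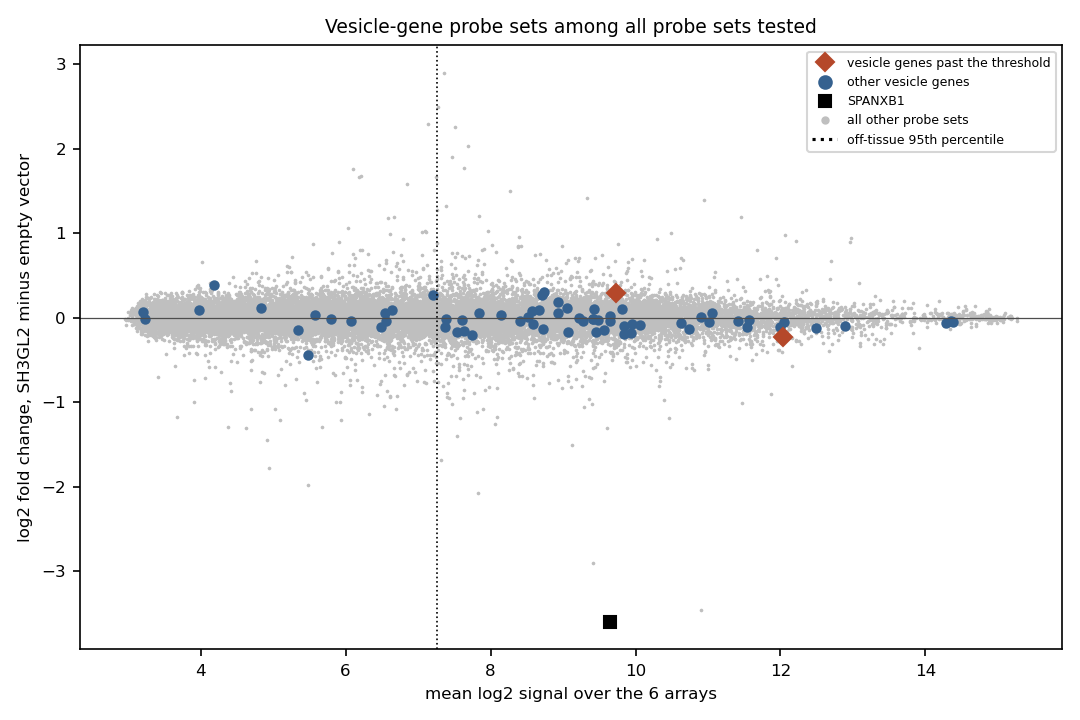
Log2 fold change (SH3GL2 minus empty vector) against mean log2 signal over the 6 arrays for all probe sets tested (grey) and for the vesicle genes (colour); the dotted line is the off-tissue 95th percentile of 7.27. The vesicle genes lie between -0.44 and 0.39, while SPANXB1 (black square), the lowest of all probe sets tested, lies at -3.60.

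The changes were also small. The 68 fold changes ran from -0.44 to 0.39, and their median absolute size was 0.08, as it was over all probe sets. Of the 68, 24 were above 0, 43 below and 1 at 0. The share below 0 was 63.2%, against 46.1% of all probe sets, and the median was -0.04 against 0.01. For 66 of the 68 the 95% interval of the difference lay within 0.5 of 0 on the log2 scale, a 1.41-fold change in either direction. So it did for all 54 whose higher group mean lay above the off-tissue level (100%, against 93.5% of all probe sets taken by that filter). The exceptions were VAMP8 and a probe set of RAB27B, both below the off-tissue 95th percentile. SPANXB1 gave 7.66, 8.05 and 7.84 in SH3GL2 cells and 11.40, 11.46 and 11.48 in empty vector cells, 12.1-fold lower with SH3GL2 (limma adjusted p = 9.41e-11). This was the lowest log2 fold change of all probe sets tested (-3.60). It is given only for scale, since no other probe set fell as far.

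**Figure D2:**
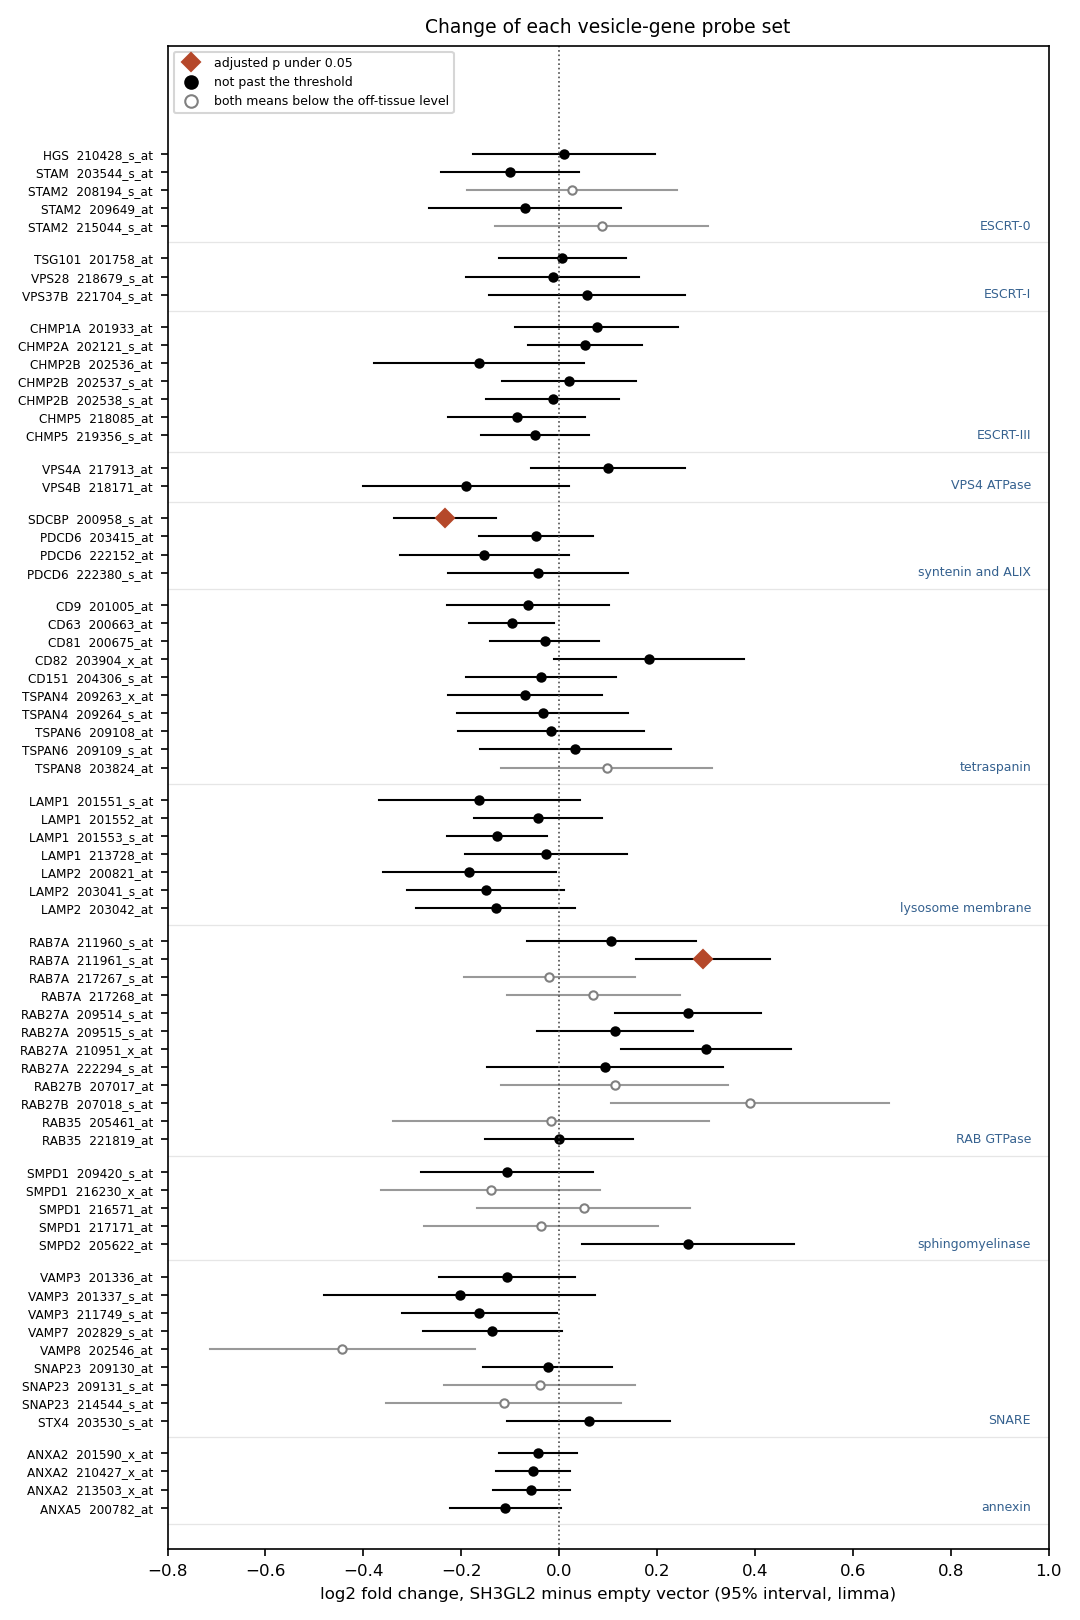
Log2 fold change with its 95% interval (limma) for each of the 68 vesicle-gene probe sets, grouped by role, with diamonds for those past the adjusted p threshold and open circles where both group means lie below the off-tissue 95th percentile. The diamonds are SDCBP at -0.23 and RAB7A at 0.29.

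The ESCRT machinery acts at the first step of vesicle formation, and none of it was called. Its 12 genes had 17 probe sets with a median change of 0.01, a range of -0.19 to 0.10 and a lowest adjusted p of 0.382. The outer ends of the 95% intervals were -0.40 and 0.30. TSG101, the ESCRT-I subunit used as a general sEV marker, gave 10.85, 10.86 and 11 in SH3GL2 cells and 10.91, 10.84 and 10.94 in empty vector cells. The groups overlapped and the difference was 0.01 (95% interval -0.12 to 0.14, limma adjusted p = 0.978). HGS, which captures ubiquitinated cargo as part of ESCRT-0, differed by 0.01, and its partner STAM by -0.10. For STAM the SH3GL2 arrays, at 9.79, 9.76 and 9.83, all lay under the empty vector arrays, at 9.84, 9.85 and 9.99, with an adjusted p of 0.526. STAM2 gave 0.03, -0.07 and 0.09 at its 3 probe sets, only the middle one above the off-tissue level. The other ESCRT-I subunits, VPS28 and VPS37B, differed by -0.01 and 0.06.

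ESCRT-III polymerises at the bud neck and closes it. CHMP1A and CHMP2A differed by 0.08 and 0.05. CHMP2B had 3 probe sets at -0.16, 0.02 and -0.01, and CHMP5 had a pair at -0.09 and -0.05. At the second of these, 219356_s_at, every SH3GL2 array lay under every empty vector array, with an adjusted p of 0.728. The VPS4 ATPases, which take the ESCRT-III polymer apart, pointed in opposite directions, with 0.10 for VPS4A and -0.19 for VPS4B. VPS4B held the largest ESCRT change, and it gave 9.86, 9.50 and 9.86 in SH3GL2 cells and 9.81, 9.93 and 10.05 in empty vector cells. The low SH3GL2 array was replicate 2, the groups overlapped, and the adjusted p was 0.382.

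SDCBP encodes syntenin, the adaptor that binds syndecan tails on one side and ALIX on the other and that is used as a marker of the vesicle lumen. Its probe set 200958_s_at gave 11.94, 11.86 and 11.94 in SH3GL2 cells and 12.10, 12.17 and 12.17 in empty vector cells. Every SH3GL2 array was lower than every empty vector array. The means were 11.91 ± 0.05 and 12.15 ± 0.04 (SD, n = 3 each), a difference of -0.23 with a standard error of 0.05 and a 95% interval of -0.34 to -0.13. This is 85.1% of the empty vector signal, and limma gave an adjusted p of 0.0153. An exact permutation test gave p = 0.1 (two-sided), the smallest that 3 arrays against 3 can give. In bulk RNA, fewer cells that express a gene and less RNA per cell cannot be told apart. The SDCBP call was lost without SH3GL2 replicate 3 (adjusted p = 0.0598), empty vector replicate 2 (0.0891) or empty vector replicate 3 (0.0642).

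PDCD6, a calcium-binding partner of ALIX, had 3 probe sets with differences of -0.05, -0.15 and -0.04 and a lowest adjusted p of 0.392. At 222152_at the SH3GL2 arrays, with 7.59, 7.47 and 7.60, lay under the empty vector arrays, with 7.69, 7.69 and 7.74.

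Syntenin was also set against the other usual vesicle markers within each array. The SDCBP signal minus the mean of CD9, CD63, CD81 and TSG101 was 0.537, 0.342 and 0.452 in SH3GL2 cells and 0.592, 0.652 and 0.65 in empty vector cells. The difference of -0.19 is a description and mostly restates that of SDCBP itself. The other markers moved less, with -0.06 for CD9, -0.10 for CD63, -0.03 for CD81 and 0.01 for TSG101.

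**Figure D3:**
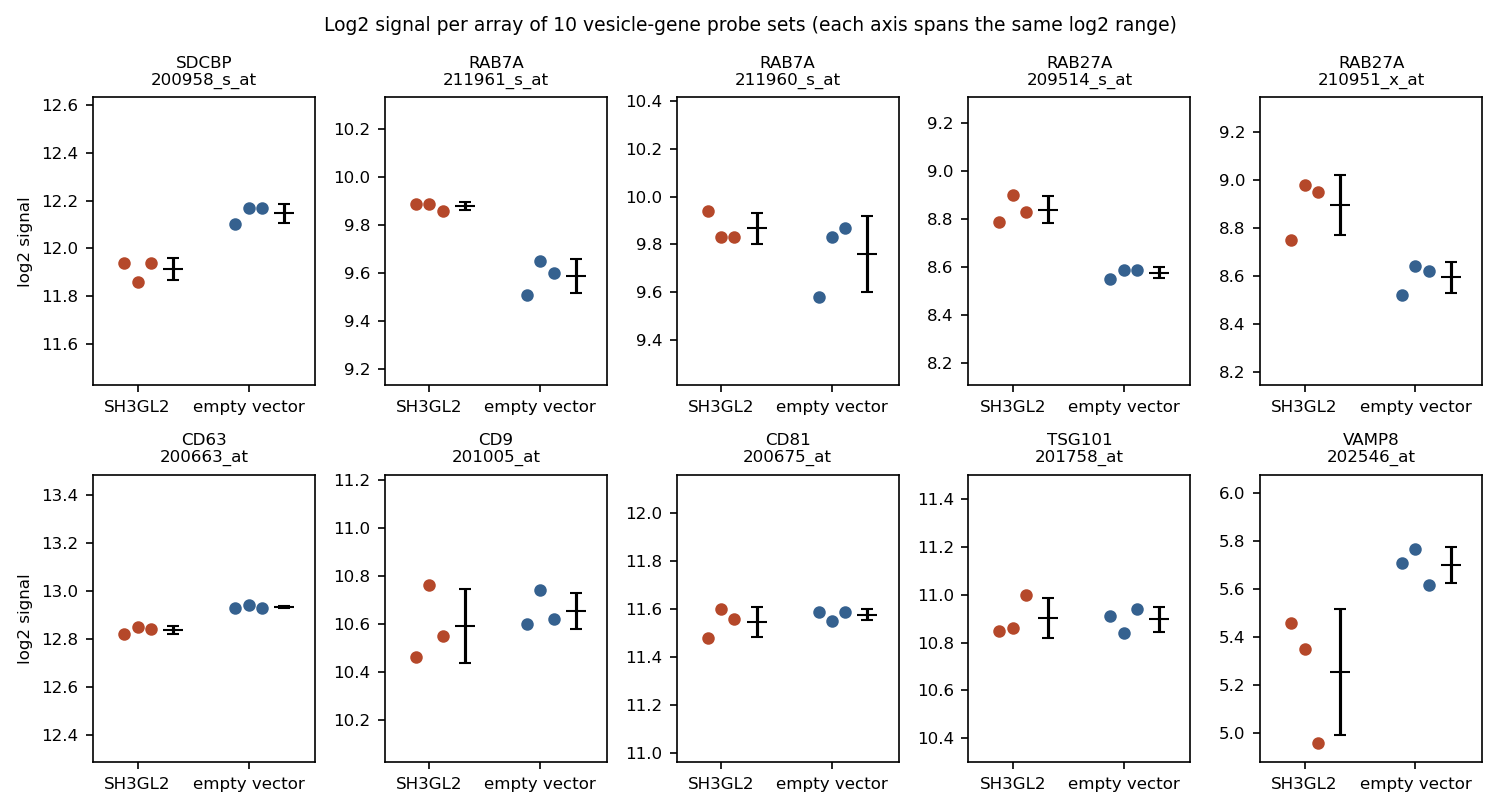
Log2 signal on each array for 10 vesicle-gene probe sets, SH3GL2 at the left and empty vector at the right of each panel, with the mean and SD of 3 arrays beside the points; all axes span the same log2 range. The groups separate for SDCBP, RAB7A 211961_s_at, both RAB27A probe sets, CD63 and VAMP8, and overlap for the other 4 panels.

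Tetraspanins organise membrane patches that hold cargo, and CD9, CD63 and CD81 are the surface markers by which sEVs are usually recognised. The 8 tetraspanin genes had 10 probe sets, with a median of -0.03, a range of -0.10 to 0.18 and a lowest adjusted p of 0.249. CD63, which is carried mainly by late endosomes, gave 12.82, 12.85 and 12.84 in SH3GL2 cells and 12.93, 12.94 and 12.93 in empty vector cells. The arrays separated cleanly, but the difference was only -0.10 (95% interval -0.18 to -0.01) and it did not pass after adjustment over the array (adjusted p = 0.249). CD9 gave 10.46, 10.76 and 10.55 in SH3GL2 cells and 10.60, 10.74 and 10.62 in empty vector cells, a difference of -0.06 with an adjusted p of 0.778. CD81 gave 11.48, 11.60 and 11.56 in SH3GL2 cells and 11.59, 11.55 and 11.59 in empty vector cells, a difference of -0.03 with an adjusted p of 0.854. Both overlapped between the groups, with intervals of -0.23 to 0.10 for CD9 and -0.14 to 0.08 for CD81.

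CD82, known as a suppressor of metastasis, had the highest tetraspanin value. It gave 9.06, 9.01 and 9.01 in SH3GL2 cells and 9.04, 8.66 and 8.83 in empty vector cells, a difference of 0.18 with an adjusted p of 0.354. The spread lay in the empty vector arrays, one of which reached the SH3GL2 level. CD151, a partner of laminin-binding integrins, differed by -0.04. TSPAN4 gave -0.07 and -0.03, and TSPAN6 gave -0.02 and 0.03. TSPAN8 lay near 4 on all arrays, below the off-tissue median, so its 0.10 has no readable signal behind it.

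LAMP1 and LAMP2 are the heavily glycosylated proteins that coat the lysosome membrane, and they mark the endosomes that are headed for degradation. All 7 of their probe sets were below 0, with a median of -0.13 and a range of -0.18 to -0.03, and none passed (lowest adjusted p = 0.188). LAMP1 probe set 201553_s_at gave 12.38, 12.44 and 12.45 in SH3GL2 cells and 12.56, 12.49 and 12.60 in empty vector cells. Its arrays did not overlap and its difference was -0.13 (95% interval -0.23 to -0.02). The other LAMP1 probe sets differed by -0.16, -0.04 and -0.03. Those of LAMP2 differed by -0.18, -0.15 and -0.13, with overlap between the groups in each. Probe sets of one gene share their transcript and are not separate evidence.

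LAMP1 also held the most E-boxes among the promoters of the vesicle genes. CACGTG, an E-box that reads the same on both strands and is a core bound by many basic helix-loop-helix factors, occurs 5 times in the 250 bases before its start in RefSeq (GRCh38.p14). The stretch at chr13:113297035-113297114 (plus strand) holds 4 of them, shown in capitals because their close spacing is the feature.
LAMP1: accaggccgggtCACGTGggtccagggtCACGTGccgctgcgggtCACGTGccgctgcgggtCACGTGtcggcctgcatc
Of 33 vesicle genes with an entry in the RefSeq promoter table, 7 (21.2%) held CACGTG before a listed start, against 7.73% of 27305 genes. Counted by start, it was 12.3% of 57 starts and 6.34% of 35116. The comparison genes were all those listed, not matched to the vesicle genes in kind or base composition. These shares were not tested. The other vesicle genes with CACGTG were VPS37B, PDCD6IP, CD63, TSPAN4, TSPAN6 and STX4. For comparison, 3 of them are given with the E-box in capitals: CD63 at chr12:55729172-55729201 (minus strand), STX4 at chr16:31033284-31033313 (plus strand) and PDCD6IP at chr3:33798513-33798542 (plus strand).
CD63: ccgggtaggggcCACGTGgccctggccggg
STX4: gaccgggctggtCACGTGacgcggtggggg
PDCD6IP: ccgcgacaccttCACGTGaccgcggacagc
No gene with this motif and a probe set was called between the groups. Of the called genes, RAB7A had no CACGTG in this window and SDCBP had no entry in the promoter table. The calls are too few to relate to the motif, and a match of letters is not a binding site.

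RAB GTPases steer the filled endosome. Over the 12 probe sets of 4 genes the median was 0.11, with 9 above 0, 2 below and 1 at 0. Over all 22215 probe sets, 11733 were above 0. Only 7 of the 12 lay above the off-tissue level, and 4 lay below the off-tissue median. Those above 0 all belonged to RAB7A, RAB27A and RAB27B. RAB7A, which brings late endosomes to the lysosome, held the call. Its probe set 211961_s_at gave 9.89, 9.89 and 9.86 in SH3GL2 cells and 9.51, 9.65 and 9.60 in empty vector cells, with means of 9.88 ± 0.02 and 9.59 ± 0.07 (SD, n = 3 each). The groups did not overlap, and the signal was 1.23-fold higher with SH3GL2, a difference of 0.29 with a standard error of 0.06 and a 95% interval of 0.16 to 0.43 (limma adjusted p = 0.0190). An exact permutation test gave p = 0.1.

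The second probe set of RAB7A with signal did not give the same call. At 211960_s_at the SH3GL2 arrays had 9.94, 9.83 and 9.83 and the empty vector arrays had 9.58, 9.83 and 9.87. The groups overlapped, with a difference of 0.11 (95% interval -0.07 to 0.28, adjusted p = 0.601), and empty vector replicate 1 alone was low. The difference between these probe sets within an array was -0.05, 0.06 and 0.03 in SH3GL2 cells and -0.07, -0.18 and -0.27 in empty vector cells. The remaining pair of RAB7A probe sets lay near 3.2, below the off-tissue median. The call at 211961_s_at was lost without SH3GL2 replicate 1 (adjusted p = 0.0528), SH3GL2 replicate 3 (0.0791), empty vector replicate 1 (0.0847) or empty vector replicate 3 (0.0549).

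As the only vesicle gene called higher, RAB7A is shown with the 250 bases before its start, chr3:128725933-128726182 on the plus strand of GRCh38.p14 in RefSeq, with the one GC box (GGGCGG, or CCGCCC on the other strand) in capitals. A GC box lay in this window in 78.8% of the 33 vesicle genes with an entry, against 46.2% of all genes, and by start in 63.2% of 57 against 42.6% of 35116. The comparison genes were again not matched, and the shares were not tested.
RAB7A: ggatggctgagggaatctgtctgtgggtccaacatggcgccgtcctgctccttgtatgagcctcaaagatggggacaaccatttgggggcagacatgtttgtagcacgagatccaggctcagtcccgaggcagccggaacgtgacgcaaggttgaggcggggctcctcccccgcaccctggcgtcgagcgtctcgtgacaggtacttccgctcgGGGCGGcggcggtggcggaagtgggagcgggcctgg

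RAB27A, which docks the filled endosome at the cell surface for release, came just short of the threshold at 2 of its 4 probe sets. At 209514_s_at it gave 8.79, 8.90 and 8.83 in SH3GL2 cells and 8.55, 8.59 and 8.59 in empty vector cells, a difference of 0.26 (95% interval 0.11 to 0.41, limma adjusted p = 0.0529). At 210951_x_at it gave 8.75, 8.98 and 8.95 in SH3GL2 cells and 8.52, 8.64 and 8.62 in empty vector cells, a difference of 0.30 with an adjusted p of 0.0575. All SH3GL2 arrays were above all empty vector arrays at both. With an array left out, 210951_x_at passed only without SH3GL2 replicate 1 (limma adjusted p = 0.0280) and otherwise reached up to 0.240. Under the same omissions 209514_s_at never passed, with an adjusted p of 0.0698 to 0.179. The other probe sets, 209515_s_at and 222294_s_at, differed by 0.11 and 0.09, with overlapping arrays and adjusted p of 0.525 and 0.774. The suffixes s and x mark probe sets whose probes may match more than one transcript.

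RAB27B, the close relative of RAB27A, had no readable signal. Its larger value came from 207018_s_at, with 4.30, 4.31 and 4.55 in SH3GL2 cells and 3.88, 4.31 and 3.80 in empty vector cells, a difference of 0.39 below the off-tissue median (adjusted p = 0.141). RAB35, which acts in recycling and release at the cell surface, differed by 0.00 at its brighter probe set.

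**Figure D4:**
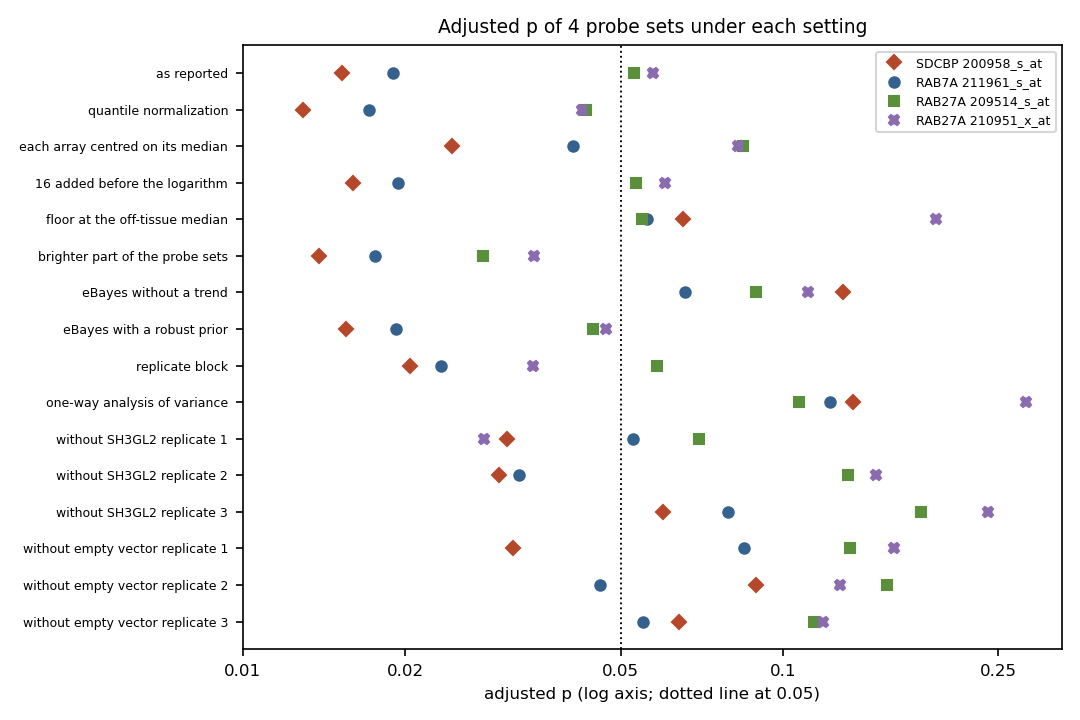
Adjusted p (log axis) of SDCBP, RAB7A 211961_s_at and 2 RAB27A probe sets as reported and under each alternative processing or left-out array, with the threshold of 0.05 as a dotted line. SDCBP and RAB7A cross to the right under several settings, and the RAB27A probe sets start at 0.0529 and 0.0575 and cross to the left under some.

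The sphingomyelinases make ceramide, a lipid that lets vesicles bud inward without ESCRT. SMPD2, a neutral sphingomyelinase, gave 7.19, 7.36 and 7.48 in SH3GL2 cells and 7.22, 7.00 and 7.02 in empty vector cells. The highest values were in SH3GL2 cells but the groups overlapped, and the difference of 0.26 (95% interval 0.05 to 0.48) had an adjusted p of 0.200. SMPD1, the acid lysosomal enzyme, differed by -0.11 at its one probe set above the off-tissue level, where the arrays did not overlap (adjusted p = 0.611), and by 0.05, -0.04 and -0.14 at the dim ones. SMPD3, one of the further genes below, had no readable signal. Its means were 4.18 in SH3GL2 cells and 4.20 in empty vector cells, below the off-tissue median.

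SNAREs join the endosome or secretory vesicle to its target membrane. Of 9 probe sets of 5 genes, 8 were below 0, with a median of -0.11 and a lowest adjusted p of 0.0721. That p belonged to VAMP8, a late endosome SNARE, which gave 5.46, 5.35 and 4.96 in SH3GL2 cells and 5.71, 5.77 and 5.62 in empty vector cells. The groups did not overlap and the difference was -0.44 (95% interval -0.71 to -0.17), the largest fall among the vesicle genes, at a signal below the off-tissue 95th percentile. VAMP3, of the recycling endosome, gave -0.11, -0.20 and -0.16, and VAMP7, of the late endosome and lysosome, gave -0.14 with an adjusted p of 0.339. The plasma membrane partners moved less, with -0.02 at the brighter probe set of SNAP23 and 0.06 for STX4.

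Annexins bind phospholipid in the presence of calcium and are abundant vesicle cargo. ANXA2 gave -0.04, -0.05 and -0.06 at probe sets with signals of 14.22 to 14.42, and ANXA5 gave -0.11 (adjusted p = 0.330). One more probe set, shared by ANXA2 and SNU13 in the annotation, was not counted and differed by 0.08 with an adjusted p of 0.448.

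Calls in the wider pathway were counted in the same way. Of 125 further genes of the same families, their partners and their cargo, 105 were measured. Of these, 4 were higher in SH3GL2 cells, 9 were lower and 92 did not pass, which by probe set was 8.6% of 186 against 4.17% of the array. Of the 186, 115 lay above the off-tissue 95th percentile, and every called probe set but SNAP25 202508_s_at was among them. Their share there was therefore above the 8.6% over all 186. The matching share over the array was 6.93%. The lists were chosen with earlier results of these data known, so these shares are a description and no test. The lists ran as follows. The syntenin partners (10 measured) held SDC1 higher and ARF6 lower, the tetraspanins (18) held TSPAN7 higher, and the cargo genes (8) held TFRC higher. The RAB GTPases and effectors (16) held RAB4A higher and RAB22A lower. Lower genes alone were found among the raft, ceramide and lysosome-membrane genes (13 measured, with CAV1, CAV2 and SGMS1), the annexins (11, with ANXA1 and ANXA3), the ESCRT genes (11, with CEP55) and the SNAREs (18, with SNAP25).

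SDC1, a cell surface proteoglycan whose tail binds syntenin, rose while syntenin fell. Its probe set 201286_at gave 10.20, 10.44 and 10.24 in SH3GL2 cells and 9.68, 9.60 and 9.52 in empty vector cells, a difference of 0.69 (limma adjusted p = 0.000137). At 201287_s_at it gave 9.81, 10.07 and 9.83 in SH3GL2 cells and 9.11, 9.19 and 9.20 in empty vector cells, a difference of 0.74. Of the other syndecans, SDC4 differed by 0.26 (adjusted p = 0.0674), SDC2 by 0.24, 0.13 and 0.19, and SDC3 by -0.09. ARF6, a GTPase that promotes the syntenin route with phospholipase D, was lower at 214182_at (-0.43, adjusted p = 0.0387) and had -0.22 and -0.16 at its other probe sets. With an array left out, its call held only without empty vector replicate 1 (adjusted p = 0.0391) and otherwise reached up to 0.130.

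TSPAN7 was the largest change among these genes, with 7.57, 7.54 and 7.60 in SH3GL2 cells and 6.57, 6.58 and 6.50 in empty vector cells, 2.03-fold higher (adjusted p = 1.21e-05). Its mean lay above the off-tissue 95th percentile in SH3GL2 cells only (7.57, against 6.55 in empty vector cells). The fold change was therefore taken against a signal within the background range. Unlike CD9, CD63 and CD81, this tetraspanin is not a usual vesicle marker. TFRC, the transferrin receptor and a classical vesicle cargo of maturing red cells, was higher at both probe sets, by 0.41 (adjusted p = 8.98e-05) and 0.26 (adjusted p = 0.00829, but 0.0503 without empty vector replicate 2). RAB4A, of fast recycling, was higher at 1 of 3 probe sets (0.32, adjusted p = 0.0397) with 0.30 and 0.25 at the others. Of the 6 fits with an array left out, its call held only without empty vector replicate 3 (adjusted p = 0.0447) and otherwise reached up to 0.143.

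Among the raft and lipid genes that fell, CAV1, the coat protein of caveolae, gave 12.95, 12.98 and 12.93 in SH3GL2 cells and 13.17, 13.34 and 13.25 in empty vector cells (-0.30, adjusted p = 0.00267), and its other probe set gave -0.29. CAV2, its partner, fell by 0.32 at 1 of 3 probe sets (adjusted p = 0.0141, but 0.0640 without empty vector replicate 2 and 0.0652 without empty vector replicate 3). SGMS1, which makes sphingomyelin from ceramide, fell by 0.40 (adjusted p = 0.00903, but 0.0508 without SH3GL2 replicate 3). The flotillins, other raft proteins, did not pass, with -0.10 to -0.07 for FLOT1 and 0.15 and 0.08 for FLOT2.

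ANXA3 gave 8.36, 8.30 and 8.38 in SH3GL2 cells and 8.87, 8.87 and 8.97 in empty vector cells (-0.56, adjusted p = 0.000458). ANXA1, a calcium-binding regulator of inflammation, fell by 0.28 (adjusted p = 0.00308), whereas ANXA2 and ANXA5 above did not pass. CEP55, which recruits ALIX and TSG101 to the bridge between dividing cells, fell by 0.31 (adjusted p = 0.0122), a call lost without SH3GL2 replicate 3 (0.0740), empty vector replicate 2 (0.0825) or empty vector replicate 3 (0.0597). RAB22A, of early endosomes, fell by 0.34 at 1 of 3 probe sets (adjusted p = 0.0455), with a call that held only without SH3GL2 replicate 2 (0.0141) and otherwise reached up to 0.198 when an array was left out. Its other probe sets gave 0.05 at 218360_at, of similar signal and in the opposite direction (adjusted p = 0.799), and -0.13 at the dim 215507_x_at. SNAP25, a SNARE of neurons, was called lower at 202508_s_at (-0.64, adjusted p = 0.00119) with means of 3.96 and 4.60 that lie below the off-tissue median, and its brighter probe set gave -0.12 (adjusted p = 0.602).

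**Figure D5:**
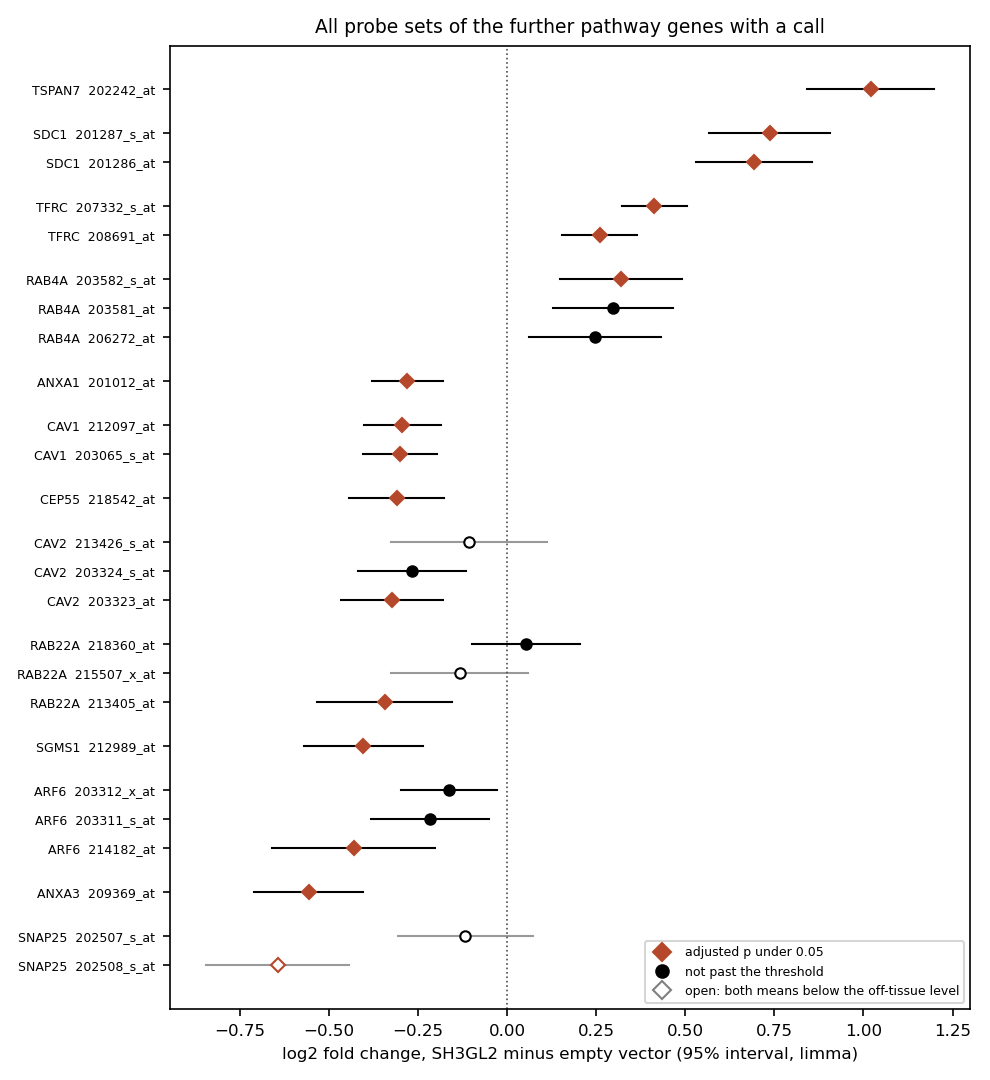
Log2 fold change with its 95% interval (limma) at every probe set of the 13 further pathway genes with a call, ordered by size, with diamonds for probe sets past the threshold and open symbols for those below the off-tissue level. TSPAN7 (1.02) and SDC1 (0.74 and 0.69) lie highest, and the probe sets of RAB22A, CAV2, ARF6, RAB4A and SNAP25 differ in their calls.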

How the data were processed

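Total RNA was extracted with Trizol and a bead kit, labelled cRNA was hybridized to human genome arrays, and the arrays were scanned with GCOS by the authors. The submitters' processing notes name MAS5, without a version. The deposited values are on a log scale, taken as log2 from their range (2.82 to 15.31), and whether the arrays were scaled to each other is not given in the sources used here. The other experiments of the study were not analysed here.

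The values were used as deposited. Of 22277 probe sets, 62 controls were left out. The platform annotation gave 19064 of the rest 1 symbol, 1043 several and 2108 none, and 0 symbols needed an update through RefSeq (GRCh38.p14). Groups were taken from the sample labels and compared over 22215 probe sets with limma 3.58.1 in R 4.3.3 (lmFit and two-sided eBayes with a trend on intensity, Benjamini-Hochberg adjustment, threshold 0.05). The microarray methods name no test. Single differences were tested by exact permutation. The fit was first tested on simulated data. Precision is limited by the 3 arrays per group, and reading dim genes by their signal over background. Python 3.11.15 and matplotlib 3.10.9 drew the figures.

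All vesicle genes are accounted for. Values by array are given for those past the threshold, for the usual vesicle markers, and for others chosen after their values were seen. Up to 3 further genes per list past the threshold are named by the smallest adjusted p. Some further genes that did not pass, such as the other syndecans, the flotillins and SMPD3, are named outside this rule. The members and lists were chosen with earlier results of these data known. Alternatives were quantile normalization, median centring, 16 added before the logarithm, a floor at the off-tissue median, only the brighter probe sets, eBayes without a trend or with a robust prior, a replicate block, a threshold of 0.01, a one-way analysis of variance, and each array left out in turn. Promoter letters were searched in the 250 bases before each RefSeq start.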

Additional observations from a re-analysis of the deposited data

How the results depend on the processing

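The median of the vesicle-gene probe sets stayed between -0.05 and -0.02 under every alternative. Over all probe sets, 441 higher and 485 lower calls became 138 and 164 with the floor, 270 and 327 without the trend, 191 and 256 at 0.01, and 33 and 44 by analysis of variance, with 184 to 376 and 296 to 437 when an array was left out (lowest without SH3GL2 replicate 3). For the vesicle genes, 1 higher call became 3 with quantile normalization, 3 among brighter probe sets and 3 with the robust prior, since both RAB27A probe sets joined RAB7A (adjusted p of 0.0424 and 0.0431 with quantile normalization), and 0 with the floor, without the trend, at 0.01 and by analysis of variance, with 0 to 2 when an array was left out (2 without empty vector replicate 2, where RAB27B joined with an adjusted p of 0.0241). The 1 lower call became 0 with the floor, without the trend, at 0.01 and by analysis of variance, with 0 to 1 when an array was left out. SDCBP then had an adjusted p of 0.0652, 0.129 and 0.134 under the first, second and last of these, and RAB7A had 0.0561, 0.0659 and 0.122. With the highest-mean probe set standing for each gene, 1 gene was called in place of 2. Among further genes, 6 higher calls became 1 by analysis of variance (4 to 7 when an array was left out), and 10 lower calls became 2 with the floor, 4 without the trend, 6 at 0.01 and 1 by analysis of variance (6 to 9 when an array was left out, 6 without SH3GL2 replicate 3, empty vector replicate 2 or empty vector replicate 3). Differences near 0 changed sign: TSG101 gave -0.0067 with median centring and ran from -0.0417 to 0.0333 when an array was left out, CD9 from -0.148 to 0.0017, and CD81 from -0.0567 to 0.0033. The causes were not tested.

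The labels give both groups replicates 1 to 3. Residual correlations between the groups ran from -0.01 to 0.15 for arrays with the same number and from -0.155 to 0.02 for different numbers. Of 6 arrays, 4 correlated best with their own number in the other group. The numbers were to be taken as pairs only if every same-number correlation was over 0.1. Replicates 2 and 3 gave 0.13 and 0.15 but replicate 1 gave -0.01, so they were not taken as pairs. With the replicate block, 2 vesicle-gene probe sets were higher (RAB7A and RAB27A 210951_x_at) and 2 lower (SDCBP and VAMP8, adjusted p = 0.0374), against 1 and 1, and the whole array had 506 and 573 calls.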
